A study of Homo sapiens with 6 samples.

Results

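The genes described here are 46 human genes of autophagy and of the lysosome, out of 12486 genes listed in the expression table used here. They were chosen by name: a list of 46 symbols was matched to the Entrez gene identifiers of the table. All 46 were listed and all 46 passed the filter on low values. By role, 20 encode autophagy proteins, 23 encode lysosomal proteins, and 3 encode transcription factors that act on both. The RNA came from K562, a human chronic myeloid leukemia line with the Bcr-Abl fusion kinase. One group of cells stably expressed a control shRNA (sh-luc), and the other an shRNA against the long noncoding RNA lncRNA-IUR1 (sh-IUR1), which the sample labels call lncRNA-up91. Each group had 3 libraries, from separate groups of cells per the study's methods: an unnumbered one and replicates 1 and 2. The level of the targeted RNA was not analysed here, which leaves the knockdown unchecked in these libraries. Values are given as FPKM, fragments scaled to transcript length and library size, which allows levels to be compared between genes. Comparisons between libraries depended in part on the scaling, so some results are also given with median-ratio scaling or quantile normalization. Groups were compared with limma on log2(FPKM + 1) over all 12276 genes that averaged 0.1 FPKM or more, and a gene was called at an adjusted p under 0.05.

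The unnumbered sh-luc library stood apart from the other 5. On the first principal component, which held 59.3% of the variance over the tested genes, it lay at -19.8. The other sh-luc libraries lay at 4.12 and 1.61, and the sh-IUR1 libraries (unnumbered, 1 and 2) at 4.79, 13 and -3.75. Of the 12276 genes tested, 4715 (38.4%) had their lowest FPKM and 2962 (24.1%) their highest in that library. In sh-IUR1 replicate 1, at the other end of the component, 2732 genes (22.3%) had their lowest and 3179 (25.9%) their highest FPKM. Many of the results below are therefore also given without the unnumbered sh-luc library. The K562 label was checked against 15 erythroid and Bcr-Abl genes that these cells express, and all 15 were listed. Their summed level was 8224, 6620 and 7271 FPKM in sh-luc (unnumbered, 1 and 2) and 6783, 6678 and 7137 FPKM in sh-IUR1, with the fetal globin gene HBG2 as the most abundant. Of other blood lineages, 3 of 6 T cell markers summed to at most 5.08 FPKM in any library, 2 of 6 B cell markers to at most 1.36 FPKM and 2 of 6 megakaryocyte markers to at most 2.70 FPKM. Of 10 monocyte and macrophage markers 4 were listed, of which LYZ was the highest at 107.0 to 118.7 FPKM. Among 9 fibroblast and epithelial markers 4 were listed, of which the keratin gene KRT8 was the highest at 348.5 to 375.3 FPKM.

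Autophagy carries cytoplasmic material to the lysosome. The ULK kinase complex starts the process, a lipid kinase complex with BECN1 and ATG14 marks the membrane on which the autophagosome grows, ATG9A and ATG2A supply lipid, and a conjugation system couples ATG8 proteins such as LC3 to that membrane. The closed autophagosome fuses with the lysosome, whose hydrolases work in the acid lumen kept by the V-ATPase proton pump. TFEB, TFE3 and MITF, basic helix-loop-helix factors that the lysosomal kinase mTORC1 holds in the cytoplasm, activate many genes of both systems through a palindromic element, the CLEAR motif, which holds a CACGTG E-box. In leukemia cells with Bcr-Abl, autophagy is known as a survival response to kinase inhibitors.

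The stretches around the CLEAR core in the promoters of the members are shown first. RefSeq (GRCh38.p14) gave a promoter window of 300 bases, from 250 before to 50 after the transcription start, for 37 of the 46 members and for 9939 of the genes tested. The core, taken here as TCACGTGA, which reads the same on both strands, occurred in 5 of the 37 member windows (13.5%), in 1.99% of the windows of tested genes and in 1.04% of all RefSeq windows. The shorter CACGTG, which lies inside it, occurred in 8 of 37 member windows (21.6%) and in 10.5% of those of tested genes (7.43% of all windows). The 5 genes with the core were ATG3, which conjugates ATG8 proteins, ATP6V0D1 of the proton pump, the protease gene CTSA, and the membrane protein genes LAMP1 and MCOLN1, both of which held 2 copies. The copy of ATG3 began 5 bases after the start on the minus strand, in chr3:112561933-112561988. That of ATP6V0D1 began 60 bases before the start on the minus strand, in chr16:67481180-67481247, and that of CTSA 26 bases before it on the plus strand, in chr20:45891279-45891346. The copies of LAMP1 began 29 and 2 bases before the start on the plus strand, in chr13:113297180-113297268, and those of MCOLN1 42 and 15 bases before it on the plus strand, in chr19:7522552-7522646. Each sequence is read on the strand of its gene, with TCACGTGA in capitals. A further CACGTG outside it is in lower case in ATG3 and in CTSA.
ATG3: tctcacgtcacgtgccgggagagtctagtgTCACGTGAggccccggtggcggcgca
ATP6V0D1: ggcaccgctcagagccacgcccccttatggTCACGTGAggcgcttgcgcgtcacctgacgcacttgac
CTSA: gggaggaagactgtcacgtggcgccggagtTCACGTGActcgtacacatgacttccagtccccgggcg
LAMP1: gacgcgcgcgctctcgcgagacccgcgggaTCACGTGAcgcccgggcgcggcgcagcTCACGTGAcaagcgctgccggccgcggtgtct
MCOLN1: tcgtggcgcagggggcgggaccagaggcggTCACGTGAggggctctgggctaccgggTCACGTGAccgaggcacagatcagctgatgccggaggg

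Across the 6 libraries the members ranged from 2.38 FPKM for ATG14 to 191.4 FPKM for PSAP. Of the 46, 4 had a mean of at least 100 FPKM (PSAP, GABARAP, MAP1LC3B and ATP6V1E1) and 8 a mean under 10 FPKM. The highest library exceeded the lowest by less than 1.2-fold for 26 of the 46 members. Exons of 25 members, with GABARAPL1, CTSD, HEXA and ATG3 among them, overlap exons of another gene, mostly on the opposite strand, so that their FPKM can include its reads. Of all listed FPKM the members made up 0.291%, 0.306% and 0.308% in sh-luc (unnumbered, 1 and 2), and 0.311%, 0.308% and 0.302% in sh-IUR1.

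**Figure D1:**
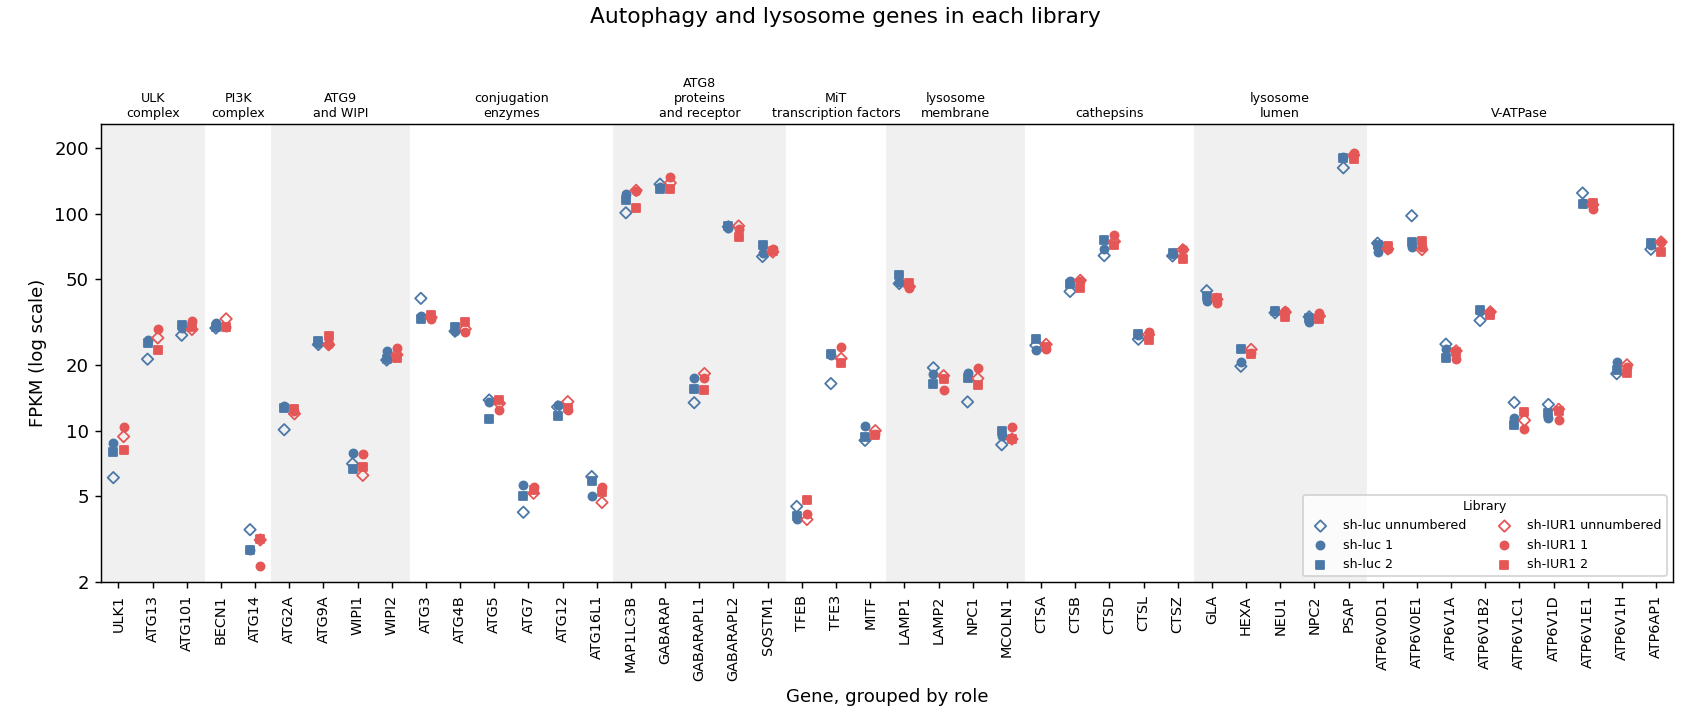
FPKM (log axis) of the 46 members in each of the 6 libraries, grouped by role; blue symbols are sh-luc and red symbols sh-IUR1, and open diamonds are the unnumbered library of each group. Levels ran from 2.38 to 191.4 FPKM, and the symbols of both groups overlapped for every gene.

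No member was called between sh-IUR1 and sh-luc. With limma, 0 of 46 members and 0 of 12276 genes (0%) had an adjusted p under 0.05. At an unadjusted p under 0.05 there were 0 members, against 325 genes (2.65%) in the whole table. Members whose 3 sh-IUR1 libraries all lay above or all below the 3 sh-luc libraries also numbered 0, against 868 of all genes tested (7.07%). All 46 of the 95% intervals of the log2 fold change included 0, and 45 of them lay within 0.5 of 0 on the log2 scale. The exception was ULK1, with an interval from -0.013 to 0.55. In bulk RNA, fewer cells that express a gene and less of its RNA per cell cannot be told apart, and an exact permutation test of 3 libraries against 3 cannot give a p under 0.1.

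The difference nearest to the threshold was that of ULK1, the kinase that starts autophagy (gene identifier 8408, chr12:131894622-131923150 in RefSeq GRCh38.p14). ULK1 was at 6.08, 8.76 and 7.96 FPKM in sh-luc (unnumbered, 1 and 2, an order kept in all that follows), or 7.60 ± 1.38 on average (SD, n = 3). In sh-IUR1 it was at 9.40, 10.40 and 8.17 FPKM, or 9.32 ± 1.12 on average (SD, n = 3). The unnumbered sh-luc library was the lowest and sh-IUR1 replicate 1 the highest, and the groups overlapped because sh-luc replicate 1 exceeded sh-IUR1 replicate 2. Its log2 fold change of 0.27 (standard error 0.13) had an unadjusted p of 0.059 from limma, or 0.930 after adjustment over all genes. Without the unnumbered sh-luc library it was 0.14.

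ATG13 and ATG101, which encode further subunits of the ULK complex, had the same lowest and highest libraries as ULK1. ATG13, the regulatory subunit, was at 21.38, 26.15 and 25.47 FPKM in sh-luc and 26.80, 29.35 and 23.51 FPKM in sh-IUR1. ATG101, which stabilizes ATG13, was at 27.56, 29.65 and 30.56 FPKM in sh-luc and 29.30, 32.08 and 30.20 FPKM in sh-IUR1. For all 3 members the fold change was above 0 in every scaling tried, with a median of 0.12 with the FPKM as deposited, 0.10 with median-ratio scaling and 0.11 with quantile normalization. Without the unnumbered sh-luc library the median was 0.034, and with any other library left out it was between 0.048 and 0.20. No other role had its lowest value in the unnumbered sh-luc library for all of its members. This role has only 3 members, and 38.4% of all genes tested were lowest in that library. RB1CC1, the scaffold of the ULK complex, is not among the members and did not share these ends. It was lowest in sh-luc replicate 2, at 4.40 FPKM, and highest in the unnumbered sh-IUR1 library, at 6.07 FPKM.

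BECN1 and ATG14, subunits of the lipid kinase complex that nucleates the autophagosome, differed widely in level. BECN1 was at 29.74, 31.31 and 30.10 FPKM in sh-luc and 32.79, 30.18 and 30.16 FPKM in sh-IUR1. ATG14, the subunit that brings the complex to the autophagosome site, was the lowest member, at 3.50, 2.81 and 2.81 FPKM in sh-luc and 3.14, 2.38 and 3.16 FPKM in sh-IUR1. The groups overlapped for both genes. Of the proteins that bring lipid to the growing membrane, ATG9A, a lipid scramblase carried on vesicles, ranged from 24.90 to 27.21 FPKM. ATG2A, which transfers lipid, was at 10.11, 13.06 and 12.71 FPKM in sh-luc and 11.97, 12.33 and 12.66 FPKM in sh-IUR1, so that the unnumbered sh-luc library lay below all others. Its log2 fold change was 0.047 with that library and -0.060 without it. WIPI1 and WIPI2 bind the phosphoinositide made by the lipid kinase. WIPI1 ranged from 6.23 to 7.87 FPKM and WIPI2 from 21.18 to 24.04 FPKM.

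The conjugation enzymes were expressed at 4.21 to 40.76 FPKM. ATG16L1, which directs the conjugation machinery to the membrane, is among the 5 members with the smallest p among those lower in sh-IUR1 (gene identifier 55054, chr2:233251673-233295669). It was at 6.15, 5.01 and 5.88 FPKM in sh-luc and 4.67, 5.49 and 5.22 FPKM in sh-IUR1, with group means of 5.68 ± 0.596 and 5.13 ± 0.418 (SD, n = 3 each). The log2 fold change was -0.12 (standard error 0.095, adjusted p of 0.930 from limma), and -0.072 without the unnumbered sh-luc library. With any other library left out it was between -0.20 and -0.068. ATG3, the E2-like enzyme with the CLEAR core near its start, was at 40.76, 33.65 and 32.60 FPKM in sh-luc and 33.33, 32.62 and 34.04 FPKM in sh-IUR1. Here the unnumbered sh-luc library was the highest, and the log2 fold change was -0.089 with it and 0.0086 without it. ATG7, the E1-like enzyme that activates ATG8 proteins and ATG12, had that library as its lowest, with 4.21, 5.61 and 5.0 FPKM in sh-luc and 5.15, 5.52 and 5.34 FPKM in sh-IUR1. Its log2 fold change was 0.10 with that library and 0.0085 without it. The protease gene ATG4B ranged from 28.45 to 31.58 FPKM. The conjugation partners ATG5 and ATG12 were close in level, at 11.32 to 13.88 and 11.66 to 13.62 FPKM.

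ATG8 proteins coat the autophagosome, and 4 of the members encode such proteins. Of these 4, GABARAP, MAP1LC3B and GABARAPL2 were the 3 most abundant autophagy members. GABARAP was at 136.9, 133.0 and 130.6 FPKM in sh-luc and 138.8, 147.7 and 129.6 FPKM in sh-IUR1. MAP1LC3B, which encodes LC3B and has a near-identical copy in MAP1LC3B2 that makes its value uncertain, was at 101.1, 123.1 and 116.2 FPKM in sh-luc and 128.3, 127.8 and 106.2 FPKM in sh-IUR1. GABARAPL2 ranged from 77.96 to 88.05 FPKM. GABARAPL1 was lower in level than these 3 (gene identifier 23710, chr12:10212877-10223128), at 13.47, 17.53 and 15.59 FPKM in sh-luc (15.5 ± 2.03, SD, n = 3) and 18.35, 17.58 and 15.37 FPKM in sh-IUR1 (17.1 ± 1.55, SD, n = 3). Its log2 fold change was 0.13 (standard error 0.10, adjusted p of 0.930 from limma), and 0.042 without the unnumbered sh-luc library, which was again the lowest. With any other library left out the fold change was between 0.085 and 0.22. SQSTM1, the p62 receptor that links ubiquitinated cargo to ATG8 proteins and is itself degraded by autophagy, was at 63.55, 65.80 and 71.52 FPKM in sh-luc and 66.67, 68.68 and 67.18 FPKM in sh-IUR1. All sh-IUR1 values of SQSTM1 lay within the range of sh-luc, and its log2 fold change was 0.013 (-0.023 without the unnumbered sh-luc library).

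Of the 3 transcription factors, TFE3 was the most abundant by FPKM. It was at 16.50, 22.31 and 22.57 FPKM in sh-luc and 21.53, 24.26 and 20.50 FPKM in sh-IUR1, with the unnumbered sh-luc library below all others. The log2 fold change of TFE3 was 0.12 with that library and -0.025 without it. MITF, known best as the melanocyte regulator, was at 9.03 to 10.50 FPKM. TFEB was at 4.48, 3.93 and 4.06 FPKM in sh-luc and 3.90, 4.14 and 4.79 FPKM in sh-IUR1. Its highest and lowest libraries were both sh-IUR1 libraries. With the FPKM as deposited the fold change was above 0 for 3 of these 3 genes, but for 1 of 3 with quantile normalization and for 1 of 3 without the unnumbered sh-luc library.

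Among the 4 members of the lysosomal membrane, LAMP1 was the most abundant, at 47.69, 48.45 and 52.12 FPKM in sh-luc (49.4 ± 2.37, SD, n = 3) and 46.20, 45.43 and 47.85 FPKM in sh-IUR1 (46.5 ± 1.24, SD, n = 3). LAMP1 encodes a major glycoprotein of that membrane (gene identifier 3916, chr13:113297239-113323672) and has the CLEAR core in 2 copies. The groups overlapped only because the highest sh-IUR1 library, replicate 2, exceeded the unnumbered sh-luc library, by 47.85 to 47.69 FPKM. Its log2 fold change was -0.086 (standard error 0.061, adjusted p of 0.930 from limma). Without the unnumbered sh-luc library it was -0.11, and without sh-luc replicate 2 it was -0.047.

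LAMP2, needed for the fusion of autophagosomes with lysosomes (gene identifier 3920, chrX:120426148-120469349), was at 19.52, 18.25 and 16.50 FPKM in sh-luc (18.1 ± 1.52, SD, n = 3). In sh-IUR1 it was at 17.94, 15.43 and 17.39 FPKM (16.9 ± 1.32, SD, n = 3). The groups overlapped, and the log2 fold change was -0.091 (standard error 0.085, adjusted p of 0.930 from limma), or -0.037 without the unnumbered sh-luc library. With any other library left out it was between -0.15 and -0.030. NPC1, which exports cholesterol from the lysosome, was at 13.58, 18.39 and 17.45 FPKM in sh-luc and 17.42, 19.41 and 16.33 FPKM in sh-IUR1. With the unnumbered sh-luc library its log2 fold change was 0.11, and without that library -0.018. MCOLN1, a calcium channel of the lysosomal membrane, ranged from 8.62 to 10.42 FPKM.

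The most abundant of the 5 cathepsin members was CTSD, which encodes an aspartic protease (gene identifier 1509, chr11:1752755-1763927). CTSD was at 64.16, 68.46 and 75.56 FPKM in sh-luc (69.4 ± 5.76, SD, n = 3) and 74.56, 80.10 and 71.68 FPKM in sh-IUR1 (75.4 ± 4.28, SD, n = 3). Its lowest sh-luc values were those of the unnumbered library and replicate 1, and sh-luc replicate 2 lay inside the range of sh-IUR1. For CTSD the log2 fold change was 0.12 (standard error 0.074, adjusted p of 0.930 from limma), and 0.067 without the unnumbered sh-luc library. With any other library left out it was between 0.077 and 0.18. The other proteases varied little between libraries. CTSZ ranged from 61.82 to 68.69 FPKM, and CTSB from 43.86 to 49.35 FPKM. CTSL ranged from 26.27 to 28.53 FPKM, and CTSA, a carboxypeptidase that also protects NEU1, from 23.45 to 26.45 FPKM. For each of these 4 genes the highest value was less than 1.2-fold above the lowest.

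PSAP, the precursor of the saposins that help hydrolases act on sphingolipids, was the most abundant member by FPKM (gene identifier 5660, chr10:71816298-71851251). It was at 162.9, 183.0 and 181.1 FPKM in sh-luc (176 ± 11.1, SD, n = 3) and 186.1, 191.4 and 178.9 FPKM in sh-IUR1 (185 ± 6.29, SD, n = 3). Its log2 fold change was 0.079 (standard error 0.063, adjusted p of 0.930 from limma), and 0.026 without the unnumbered sh-luc library, the lowest of the 6.

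HEXA encodes the alpha subunit of hexosaminidase A, which degrades GM2 ganglioside (gene identifier 3073, chr15:72340924-72376014). It was at 19.82, 20.78 and 23.72 FPKM in sh-luc (21.4 ± 2.03, SD, n = 3) and 23.71, 22.88 and 22.53 FPKM in sh-IUR1 (23 ± 0.606, SD, n = 3). Although its sh-luc mean was lower, the highest single value was that of sh-luc replicate 2. The log2 fold change was 0.10 (standard error 0.077, adjusted p of 0.930 from limma), and 0.051 without the unnumbered sh-luc library. With any other library left out it was between 0.083 and 0.17. The remaining lumenal members had narrow ranges. GLA, an alpha-galactosidase, ranged from 38.86 to 44.21 FPKM, NEU1, a sialidase, from 33.46 to 35.56 FPKM, and NPC2, a cholesterol carrier, from 31.70 to 34.96 FPKM.

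The V-ATPase members included the one with the lowest fold change of the 46. ATP6V0E1, a small subunit of the membrane sector (gene identifier 8992, chr5:172983771-173035445), was at 97.92, 69.99 and 73.75 FPKM in sh-luc (80.6 ± 15.2, SD, n = 3). In sh-IUR1 it was at 68.35, 70.12 and 75.04 FPKM (71.2 ± 3.47, SD, n = 3). The unnumbered sh-luc library was far above the other 5, which lay between 68.35 and 75.04 FPKM. This gave a log2 fold change of -0.16 (standard error 0.11, adjusted p of 0.930 from limma) with that library and -0.015 without it. With any other library left out the fold change was between -0.25 and -0.13.

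ATP6V1E1, a subunit of the stalk that joins both sectors of the pump, was the most abundant of the 9 V-ATPase members (gene identifier 529, chr22:17592136-17628822). It was at 124.7, 112.1 and 111.0 FPKM in sh-luc (116 ± 7.61, SD, n = 3) and 110.1, 105.2 and 112.3 FPKM in sh-IUR1 (109 ± 3.65, SD, n = 3). The log2 fold change was -0.084 (standard error 0.063, adjusted p of 0.930 from limma), and -0.031 without the unnumbered sh-luc library, which was the highest. That library was the highest of the 6 for 6 of the 9 V-ATPase members, namely ATP6V0D1, ATP6V0E1, ATP6V1A, ATP6V1C1, ATP6V1D and ATP6V1E1. It was the highest for 6 of the 20 other V-ATPase genes tested (30%) and for 24.1% of all genes tested. ATP6V0D1, the membrane sector subunit with the CLEAR core, was at 73.19, 66.38 and 71.69 FPKM in sh-luc and 68.87, 69.17 and 70.85 FPKM in sh-IUR1. The catalytic subunit gene ATP6V1A ranged from 21.51 to 25.07 FPKM, ATP6V1C1 from 10.18 to 13.50 FPKM and ATP6V1D from 11.19 to 13.22 FPKM. For ATP6V1B2 (32.22 to 36.19 FPKM) and ATP6V1H (18.32 to 20.66 FPKM) the same library was the lowest instead. The accessory subunit gene ATP6AP1 ranged from 66.79 to 74.50 FPKM, with sh-IUR1 libraries at both ends. Of the 9 V-ATPase members, 6 had a fold change below 0, a count that was 9 with median-ratio scaling, 7 with quantile normalization and 6 without the unnumbered sh-luc library.

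**Figure D2:**
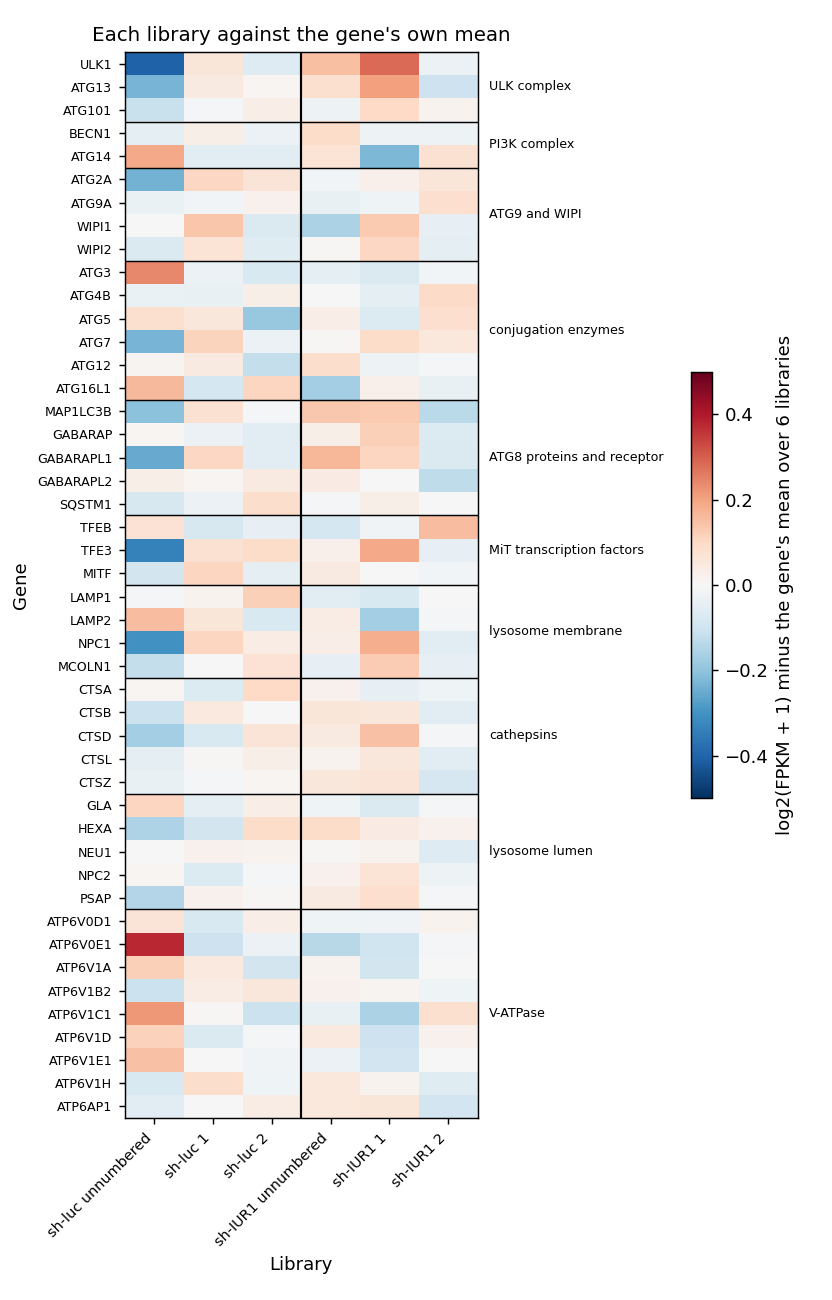
Difference of log2(FPKM + 1) in each library from the gene's own mean over the 6 libraries, for the 46 members grouped by role; red is above and blue below the mean. The strongest colours are in the unnumbered sh-luc column, which is the lowest for ULK1, ATG13 and ATG101 and the highest for 6 of the 9 V-ATPase members.

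Autophagy and lysosome members were then set side by side. Of the 20 autophagy members 15 had a fold change above 0 (13 with median-ratio scaling, 15 with quantile normalization), and of the 23 lysosome members 12 (8 and 9 with these scalings). Over all 12276 genes tested the count above 0 was 7119 (58.0%), and 6230 and 6008 with these scalings. The median log2 fold change was 0.036 for autophagy members, with 0.017 and 0.025 under these scalings. For lysosome members it was 0.0063, with -0.013 and -0.0050 under the same scalings, so its sign depended on the scaling. The median over all genes tested was 0.019, with 0.0016 and -0.0022 under these scalings. Without the unnumbered sh-luc library, the medians were 0.016 for autophagy members, -0.013 for lysosome members and 0.0047 for all genes tested. In size regardless of sign, the median difference on the log2 scale was 0.049 for the 46 members and 0.063 for all genes tested, or 0.027 and 0.047 without that library. Its omission changed the sign of the fold change for 16 of the 46 members.

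**Figure D3:**
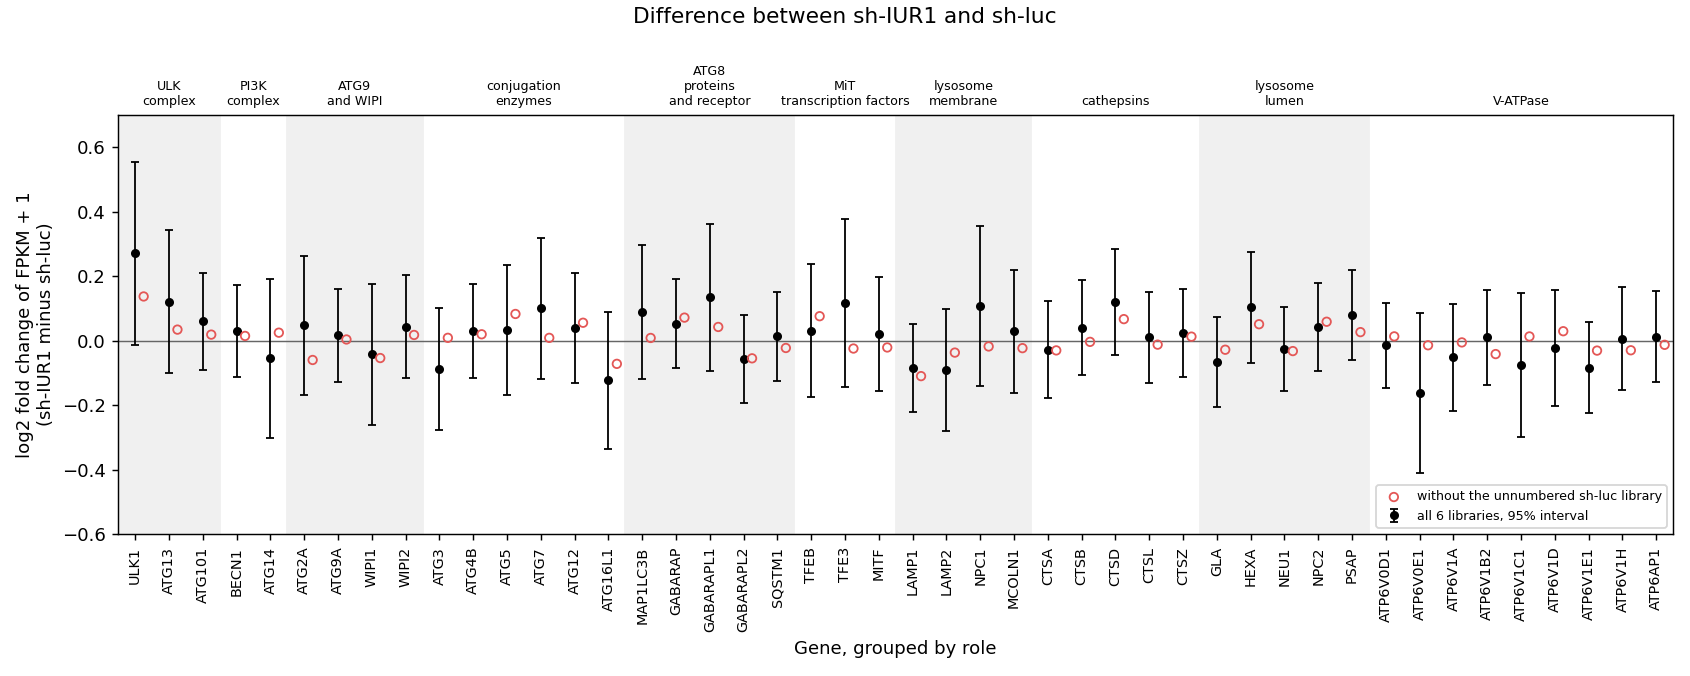
Log2 fold change of FPKM + 1 (sh-IUR1 minus sh-luc) of each member with its 95% interval from limma (black), and the value without the unnumbered sh-luc library (open red circles). All 46 intervals include 0, and the largest value, 0.27 for ULK1, becomes 0.14 without that library.

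Members with the CLEAR core differed little between the groups. Their median log2 fold change was -0.028, with 1 of 5 above 0 (MCOLN1, at 0.029), against 0.030 for the other members with a promoter window. The medians were -0.023 and 0.010 without the unnumbered sh-luc library, with 2 of 5 above 0 (ATG3 and ATP6V0D1, while MCOLN1 was below). With the shorter CACGTG the medians were -0.027 for the 8 members that had it and 0.031 for those that did not (-0.0074 and 0.0085 without that library). ATG3 and ATP6V0D1 were highest in the unnumbered sh-luc library, CTSA and LAMP1 in sh-luc replicate 2, and MCOLN1 in sh-IUR1 replicate 1. None of these 5 genes had an unadjusted p under 0.05 from limma.

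The number of members without overlap between the groups varied with the library left out, while the share of all genes tested rose in each case. Leaving out sh-IUR1 replicate 2 left 12 members without overlap (26.1%, and 25.1% of all genes tested), 10 of them higher in sh-IUR1. Leaving out sh-luc replicate 1 left 8 (17.4%, and 22% of all genes), and leaving out sh-luc replicate 2 left 5 (10.9%, and 14.2% of all genes). Without the unnumbered sh-luc library there were 3, each lower in sh-IUR1 (6.52%, and 12.6% of all genes). Without the unnumbered sh-IUR1 library there was 1, also lower (2.17%, and 11.9% of all genes), and without sh-IUR1 replicate 1 there were 0 (0%, and 14.2% of all genes). With fewer libraries in a group, groups without overlap are more frequent among all genes too. Members at an unadjusted p under 0.05 numbered 1 without sh-luc replicate 1 and 1 without sh-IUR1 replicate 2 (ULK1 in both), and 2 without sh-luc replicate 2 (CTSD and HEXA). The shares of all genes at that limit were 6.96%, 5.8% and 2.42% in these fits.

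Other genes of the same pathways were examined from lists, and 0 of them passed the test in limma. Of 29 further autophagy genes tested, 21 had a fold change above 0 and 8 below 0 (18 and 11 with median-ratio scaling, 17 and 12 with quantile normalization, 15 and 14 without the unnumbered sh-luc library), a median of 0.034 (0.00088 without that library), and 0 had an unadjusted p under 0.05 (1 without that library, RB1CC1). The smallest p-values were those of ULK3, RB1CC1, ATG2B and ATG10. ULK3, a kinase related to ULK1, had no overlap between groups, with 12.79, 12.99 and 13.26 FPKM in sh-luc and 14.57, 14.53 and 14.28 FPKM in sh-IUR1. RB1CC1, the FIP200 scaffold of the ULK complex, was at 5.02, 4.81 and 4.40 FPKM in sh-luc and 6.07, 4.98 and 5.74 FPKM in sh-IUR1. Of 17 autophagy receptors tested, 11 were above 0 and 6 below (the same counts with either scaling, 14 and 3 without the unnumbered sh-luc library), a median of 0.068 (between 0.015 and 0.080 with 1 library left out). CALCOCO1, a receptor for endoplasmic reticulum, was the 1 receptor at an unadjusted p under 0.05, with 4.27, 5.31 and 4.68 FPKM in sh-luc and 5.65, 6.30 and 5.22 FPKM in sh-IUR1, and was above that p without the unnumbered sh-luc library. It was followed by STBD1, CCPG1 and NBR1. Of these, CCPG1 and NBR1 were higher in sh-IUR1, while STBD1 was lower. STBD1 was at 0.50, 0.58 and 0.51 FPKM in sh-luc and 0.43, 0.40 and 0.29 FPKM in sh-IUR1.

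Of 44 further lysosomal hydrolases, 28 had a fold change above 0 and 16 below (24 and 20 with median-ratio scaling, 25 and 19 with quantile normalization), a median of 0.035 (between 0.016 and 0.072 with 1 library left out), with 0 at an unadjusted p under 0.05. The acid phosphatase gene ACP2 had the smallest p, at 10.21, 16.72 and 14.97 FPKM in sh-luc and 18.45, 19.80 and 15.25 FPKM in sh-IUR1, followed by ACP5, CTSK and GAA. CTSK was lower in sh-IUR1, with a log2 fold change of -0.20, and GAA higher, at 0.18. Of 32 genes of the lysosomal membrane and of sorting to it, 24 were above 0 and 8 below (18 and 14 with either scaling), a median of 0.043 (between 0.018 and 0.078 with 1 library left out). SUMF1, which activates sulfatases, was the 1 gene among them at an unadjusted p under 0.05, followed by SIDT2, LAPTM5 and CD63. Without the unnumbered sh-luc library the 1 gene was LAMP3 instead. Of the 32 genes, 3 higher and 3 lower ones had no overlap between groups (18.8%, and 7.07% of all genes tested), against 1 of the 29 autophagy genes, 2 of the 17 receptors, 4 of the 44 hydrolases, 2 of the 20 other V-ATPase genes and 1 of the 38 mTORC1 genes. Among the 6, CD63, a tetraspanin of late endosomes, exceeded every member in level, at 394.4, 359.0 and 372.7 FPKM in sh-luc and 346.0, 350.1 and 347.7 FPKM in sh-IUR1. Of 20 other V-ATPase genes, 13 were above 0 and 7 below (10 and 10 with median-ratio scaling), a median of 0.020 (0.0022 without the unnumbered sh-luc library), with 0 at an unadjusted p under 0.05. Those with the smallest p were DMXL2, ATP6V1E2, VMA21 and ATP6V0A2.

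Of 38 genes of mTORC1 and its regulators at the lysosome, 28 had a fold change above 0 and 10 below (24 and 14 with median-ratio scaling, 23 and 15 with quantile normalization, 22 and 16 without the unnumbered sh-luc library), a median of 0.039 (0.0081 without that library), with 0 at an unadjusted p under 0.05. SESN2, a leucine sensor that restrains mTORC1 and a target of the stress factor ATF4, had the smallest p, followed by NPRL3 and RHEB. SESN2 was at 26.23, 80.58 and 68.51 FPKM in sh-luc and 81.60, 98.54 and 60.75 FPKM in sh-IUR1. It is also 1 of 18 tested genes of the integrated stress response, a list chosen with earlier results of these data known. All 18 were lowest in the unnumbered sh-luc library, as were 38.4% of all genes tested. The mean deviation of these 18 genes from their own means on the log2 scale was -0.77, 0.21 and 0.027 across sh-luc, against 0.24, 0.36 and -0.067 across sh-IUR1. For the 3 ULK complex genes it was -0.25, 0.032 and -0.0076 across sh-luc, against 0.068, 0.20 and -0.039 across sh-IUR1. Both were lowest in the unnumbered sh-luc library and highest in sh-IUR1 replicate 1, as were the means over all 46 members, over the ATG8, transcription factor and cathepsin members, and over the other hydrolase, sorting and mTORC1 genes. RB1CC1 had neither of these libraries at its ends. The mean over all genes tested was lowest in the unnumbered sh-luc library as well, at -0.035, the same as for the 46 members. For the 9 V-ATPase members the mean deviation was 0.089, -0.0080 and -0.017 across sh-luc, against -0.0035, -0.053 and -0.0076 across sh-IUR1, with the unnumbered sh-luc library the highest and sh-IUR1 replicate 1 the lowest. For the 20 other V-ATPase genes it was -0.0069, -0.017 and -0.0048 across sh-luc, against -0.012, 0.041 and -0.0003 across sh-IUR1, so that sh-IUR1 replicate 1 was the highest there. Like the 9 V-ATPase members, the 15 erythroid and Bcr-Abl genes had their highest mean deviation in the unnumbered sh-luc library, at 0.11. Their lowest was in sh-IUR1 replicate 1, at -0.079. The fold change was above 0 for 18 of the 18 stress genes with a median of 0.32, and for 17 of 18 with a median of 0.057 without the unnumbered sh-luc library. The part of the stress genes, or of that library, in the members' differences was not tested.

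**Figure D4:**
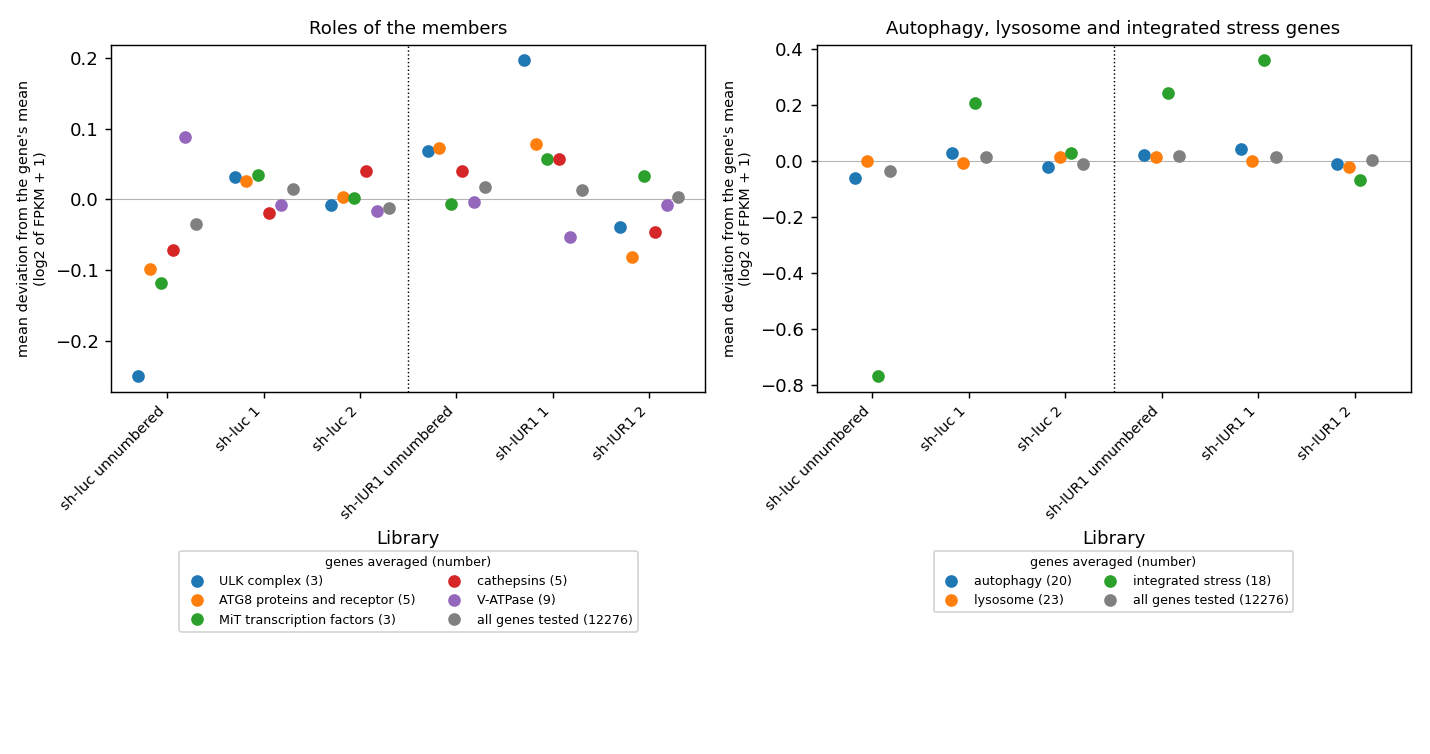
Mean deviation of log2(FPKM + 1) from each gene's own mean, by library, for 5 roles of the members (left) and for autophagy, lysosome and integrated stress genes (right), with all tested genes in grey and the number of genes in brackets. In the unnumbered sh-luc library the ULK complex lay at -0.25, the V-ATPase at 0.089 and the integrated stress genes at -0.77.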

How the data were processed

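RNA-seq had been performed on 6 libraries of K562 cells, 3 per group. After trimming and masking, the authors aligned the reads to hg38. The submitters' processing notes name SAMtools 0.1.19. The aligner, the annotation and whether strand was used are not given in the sources used here. The methods name RPKM, and the deposited values are FPKM with 2 decimals. A further 6 deposited columns, z-score values of the same FPKM, were not used. RefSeq gave symbols for 12363 of 12486 genes. The table holds no gene with an SD under 0.05 FPKM over the libraries.

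The members and the gene lists were chosen with earlier results of these data known. Values were transformed to log2(FPKM + 1), which understates changes of low genes. Genes averaging 0.1 FPKM or more entered a fit by limma 3.58.1 under R 4.3.3 (lmFit, then eBayes with trend), and p-values were adjusted by Benjamini-Hochberg over all 12276 genes. Fold changes with errors were given for members without overlap and for the 5 members of smallest p in each direction, and from each pathway list up to 4 genes of smallest p were named, apart from 1 that is not reported here. ATG2A, ATG3, ATG7, TFE3, NPC1, SQSTM1 and MCOLN1 were singled out after their values were seen. The integrated stress genes were used for their level in each library. The alternatives were each library left out in turn, the replicate number as a block, quantile normalization or median-ratio scaling, a filter at a mean of 1 FPKM or none, a pseudocount of 0.1, and eBayes without trend. Python 3.11.15, numpy 2.4.6, pandas 2.3.3 and matplotlib 3.10.9 served for the rest.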

Additional observations from a re-analysis of the deposited data

How the results depend on the processing

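With an adjusted p under 0.05, limma called 0 members and 0 genes under each of the 13 alternatives. Genes at an unadjusted p under 0.05 numbered 325 with the settings of the text and between 156 and 854 when single libraries were left out. Of all 46 members, 16 changed the sign of their fold change without the unnumbered sh-luc library. The 10 named members were those of smallest p in each direction, a choice that favours a kept direction. Their fold changes kept their direction in the 9 alternatives that alter a fold change (90 values). The other 4 leave the fold change as it is. Adjusted p-values of these members were between 0.667 and 1 from limma over all 13. The number of members without overlap between groups was 0 with the settings of the text, where 7.07% of all genes had none. It was 1 (2.17%) with median-ratio scaling, against 7.31% of all genes. With 1 library left out it was 0 to 12 (0% to 26.1%), against 11.9% to 25.1% of all genes. Members at an unadjusted p under 0.05 from limma numbered 0 to 2 with 1 library left out, against 1.27% to 6.96% of all genes. The median log2 fold change of lysosome members was -0.013 with median-ratio scaling and between -0.014 and 0.022 with 1 library left out, and that of autophagy members between 0.016 and 0.060. The cause of these shifts was not tested.

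With a replicate block in the fit, 1 member (ULK1) and 533 genes had an unadjusted p under 0.05, and 0 genes were called. Whether the numbers pair the libraries was not settled. The correlation across genes of same-numbered deviations from the group means was 0.044 for the unnumbered libraries, 0.39 for replicate 1 and -0.34 for replicate 2. Differently numbered libraries were not compared in this way, so these values cannot decide it.

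The number of fragments behind the FPKM is unknown. Of 67 low values of short genes with 1 exon, 38.8% came within 0.1 of a whole fragment even at the best depth tried. The share would be 20% if values were evenly spread. Each depth was tried on all libraries together, so depths that differed between libraries could not be found. The depth was not recovered. For 22 of the 46 members an exon overlaps an exon of an antisense gene, and for 5 of a gene on the same strand (25 in all), so their FPKM can include reads of those genes.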
